A study of Mus musculus with 6 samples.

Results

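The transcripts of 3 enzymes of arginine and itaconate metabolism, Nos2, Ass1 and Acod1, were followed across the CD45+ immune cells of mouse liver carrying 4T07 breast tumour metastases. They were found by an exact match of the gene symbol among the 5301 genes held by at least 1 of the 3 deposited matrices, and all 3 were found. The matrices of micrometastasis (2669 genes) and macrometastasis (2643 genes) held all 3, and that of adjacent tissue (4486 genes) held Ass1 and Acod1, so Nos2 was not analysed here in adjacent tissue.

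Balb/c mice received 4T07 cells by intracardiac injection, either Ctrl cells or Tim3-KD cells, in which Tim3 was knocked down with an shRNA. CD45+ cells were sorted from liver pieces, as adjacent tissue free of tumour and micrometastasis at day 3 and as macrometastasis at day 12, and single-cell RNA-seq libraries were made by 10x 3' chemistry. Each of the 6 libraries was a pool of mice and the single library of its group, so no test between Ctrl and Tim3-KD within a site was possible, no test over sites was run, no p-value is given, and mouse, sort and library cannot be told apart from site or tumour line. Macrometastasis also differs in day from the other sites, so site and day cannot be told apart in comparisons with it. The intervals below are 95% intervals that cover counting error only. Levels are given as CPM, the unique molecular identifiers (UMIs) of a gene among 1000000 UMIs of all genes in the same cells. Since the tumour cells, where Tim3 was knocked down, are not sorted as CD45+ cells, the level of its gene Havcr2, at 4.14 to 15.6 CPM in the 6 libraries, is no check of the labels.

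The 6 libraries held 23008 cells, of which 1803 and 542 came from adjacent tissue (Ctrl and Tim3-KD), 5106 and 5142 from micrometastasis and 4913 and 5502 from macrometastasis, with medians of 6300 to 10248 UMIs per cell. Cells were clustered together without Ass1 and Acod1 and without genes that only some of the matrices hold, such as Nos2, and clusters were named as "X-like" from markers. Clusters 11 and 18 stayed unnamed, since their markers tied between classes. The gene of CD45, Ptprc, is not among the genes analysed here, and 632 of the 23008 cells formed an endothelial-like cluster. The Tim3-KD library of adjacent tissue stood apart in its makeup. It had 3.51% mature neutrophil-like cells (19 of 542) beside 33.2% in Ctrl (598 of 1803), and no neutrophil precursor-like or progenitor-like cell beside 316 and 72 in Ctrl. Any pair of libraries shared at most 11 cell barcodes.

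Arginine is a branch point of immune metabolism. The inducible nitric oxide synthase (Nos2) turns it into nitric oxide and citrulline. Argininosuccinate synthase (Ass1) begins the return of citrulline to arginine. Acod1, also known as Irg1, makes itaconate from the citrate cycle intermediate cis-aconitate in activated myeloid cells, where itaconate is known to inhibit succinate dehydrogenase.

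In the GENCODE vM21 annotation of GRCm38, Nos2 lies at chr11:78920787-78960254 on the plus strand with 27 exons in its longest coding transcript, and Ass1 at chr2:31470207-31520672 on the plus strand with 16 exons. Acod1 lies at chr14:103046977-103056573 on the plus strand with 5 exons. None of the 3 overlaps another annotated gene. RefSeq promoter sequences were at hand for 2 of them, and the 250 bases before the RefSeq start (GRCm38.p6) are shown because Acod1 and Ass1 were high in different cells. The RefSeq starts lie downstream of the GENCODE starts above, so the end of each window lies within the GENCODE gene. The letters set in capitals below lie in that part for Ass1 and before it for Acod1. The Acod1 window is chr14:103046762-103047011 (plus strand), with the PU.1 core AGGAAGT and the kB-like palindrome GGAANTTCC in capitals, and the Ass1 window is chr2:31470020-31470269 (plus strand), with the GC box GGGCGG and the E box CACGTG in capitals.
Acod1: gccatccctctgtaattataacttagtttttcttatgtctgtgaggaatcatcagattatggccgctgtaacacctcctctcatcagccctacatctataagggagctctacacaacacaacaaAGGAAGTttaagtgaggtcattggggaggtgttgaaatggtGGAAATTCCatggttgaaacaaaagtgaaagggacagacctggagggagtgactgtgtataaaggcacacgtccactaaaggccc
Ass1: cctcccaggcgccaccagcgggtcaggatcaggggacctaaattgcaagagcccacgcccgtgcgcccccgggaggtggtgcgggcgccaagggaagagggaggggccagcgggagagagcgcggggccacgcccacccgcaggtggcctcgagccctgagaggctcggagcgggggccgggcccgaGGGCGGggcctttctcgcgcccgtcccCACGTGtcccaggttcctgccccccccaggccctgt

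The Acod1 window held 2 CpG and 44.4% G and C, and the Ass1 window 23 CpG and 75.6% G and C, beside medians of 6 CpG and 52.4% over 32851 RefSeq promoters of the same length. Of these promoters, searched on both strands, 0.813% held GGAANTTCC, 7.69% AGGAAGT, 32.7% GGGCGG and 6.02% CACGTG. The TATA box letters TATAAA were in 12.4% of promoters. They began 28 bases before the RefSeq start in Acod1, a place within the GENCODE gene, and were not found in Ass1. The AP-1 letters TGANTCA (6.75%), the C/EBP letters TTGCNNCAA (1.74%) and the CRE letters TGACGTCA (1.55%) were in neither window. A match of letters is a description and no evidence of binding.

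Levels over all cells of a library are shown in the plot of levels by library. Nos2 was at 10.4 CPM (9.57 to 11.3) in Ctrl and 7.03 (6.46 to 7.63) in Tim3-KD micrometastasis, and at 7.57 (6.77 to 8.43) and 8.73 (8.02 to 9.50) in macrometastasis. It was the lowest of the 3 genes in each of the 4 libraries. Ass1 was at 80.5 (77.4 to 83.7) and 27.2 (23.5 to 31.4) in adjacent tissue (Ctrl and Tim3-KD), 34.9 (33.3 to 36.4) and 48.8 (47.2 to 50.3) in micrometastasis, and 18.2 (17 to 19.5) and 44.9 (43.3 to 46.6) in macrometastasis. Acod1 was at 280.4 (274 to 286) and 13.3 (10.7 to 16.2) in adjacent tissue, 206 (202 to 210) and 136 (134 to 139) in micrometastasis, and 214 (210 to 219) and 226 (222 to 229) in macrometastasis. Acod1 was the highest of the 3 in every library but adjacent Tim3-KD, where Ass1 was higher. Levels of different genes are compared without a length term. UMIs over introns were counted with those over exons, and the genes span 39468 (Nos2), 50466 (Ass1) and 9597 (Acod1) bases. The part of gene span in these levels was not tested.

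**Figure D1:**
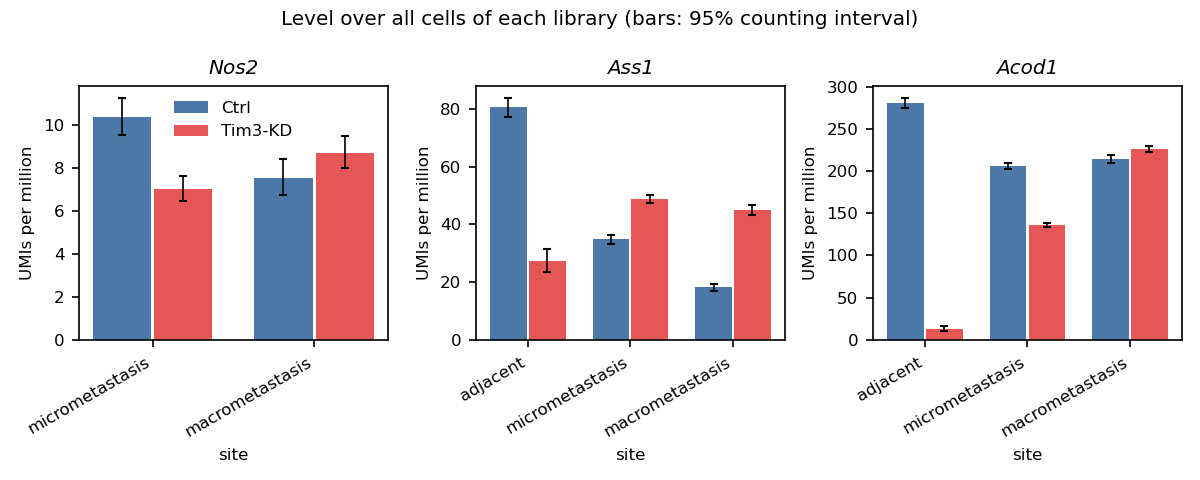
Level of each gene over all cells of a library, in CPM, by site; blue bars are Ctrl, red bars Tim3-KD and lines the 95% counting interval, with 1 library per bar. Acod1 is at 13.3 in the adjacent Tim3-KD bar beside 280.4 in Ctrl, and Ass1 at 34.9 and 48.8 in micrometastasis and at 18.2 and 44.9 in macrometastasis (Ctrl and Tim3-KD).

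Tim3-KD and Ctrl were then compared within each site. A gene was counted as past 2-fold in either direction if both libraries together held at least 100 of its UMIs. In adjacent tissue 43.1% of 4459 genes were past 2-fold, and 2 of the 2 enzymes measured. Acod1 was lower in Tim3-KD by a ratio of 0.0473 (0.0382 to 0.0580), that is 21.1-fold, and Ass1 by 0.338 (0.291 to 0.392). With so large a share of all genes past 2-fold, and with the cell makeup described above, the count of 2 is no result about the enzymes. In micrometastasis 18.9% of 2669 genes and none of the 3 enzymes were past 2-fold. The Tim3-KD over Ctrl ratio was 0.676 (0.601 to 0.760) for Nos2, 1.40 (1.32 to 1.48) for Ass1 and 0.663 (0.645 to 0.680) for Acod1. In macrometastasis 12.9% of 2641 genes and 1 of the 3 enzymes were past 2-fold. This was Ass1, at a ratio of 2.47 (2.28 to 2.68), higher than in 98.9% of genes. Its log2 difference of 1.30 fell under 2-fold as a mean over cells (0.68) and with the cluster mix held as in Ctrl (0.47). The ratio was 1.15 (1.00 to 1.33) for Nos2 and 1.05 (1.03 to 1.08) for Acod1.

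Genes as a whole were shifted between the libraries of a site, with a trimmed mean log2 difference (Tim3-KD minus Ctrl) of -0.44 in micrometastasis, -0.27 in macrometastasis and 0.60 in adjacent tissue. Relative to it, the differences in micrometastasis were -0.13 for Nos2, 0.92 for Ass1 and -0.15 for Acod1. In macrometastasis they were 0.48, 1.57 and 0.34 in the same order, and in adjacent tissue -2.16 for Ass1 and -5.00 for Acod1. None of these directions turned. Among all genes past 2-fold, 1510 were higher and 413 lower in Tim3-KD adjacent tissue (850 and 715 relative to the shift), 20 and 484 in micrometastasis (79 and 243), and 60 and 280 in macrometastasis (98 and 198).

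The cells that held the transcripts were few for Nos2 and many for Acod1. At full depth, a UMI of Nos2 was found in 6.84% and 7.22% of micrometastasis cells (Ctrl and Tim3-KD) and in 3.89% and 5.80% of macrometastasis cells. Thinned to 1500 UMIs per cell by 1 random draw, these shares were 1.96%, 1.73%, 1.20% and 1.80%, and none of the cells was too shallow to be thinned. Ass1 was present in 17.7% and 14.8% of the cells of adjacent tissue, 13.4% and 16.3% of those of micrometastasis and 8.22% and 13.2% of those of macrometastasis. Thinned, the shares were 4.99% and 2.95%, 3.13% and 3.36%, and 1.93% and 3.45%. Single cells reached 17 to 58 Ass1 UMIs in the 6 libraries, and the 10 cells with the most held 44.0% of the Ass1 UMIs of adjacent Tim3-KD and 6.21% to 18.8% in the other libraries. A UMI of Acod1 was present in 44.8% and 3.87% of the cells of adjacent tissue, 31.7% and 40.5% of micrometastasis cells and 28.5% and 32.8% of macrometastasis cells. Thinned, the shares were 31.2% and 2.58%, 19.4% and 20.4%, and 17.8% and 22.3%. Over all cells the micrometastasis libraries lay close together once depth was equal. Within mature neutrophil-like cells of micrometastasis the thinned shares were 58.0% (55.5% to 60.5%) in Ctrl and 49.3% (46.9% to 51.6%) in Tim3-KD. In this class of macrometastasis they were 49.5% and 57.6%.

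**Figure D2:**
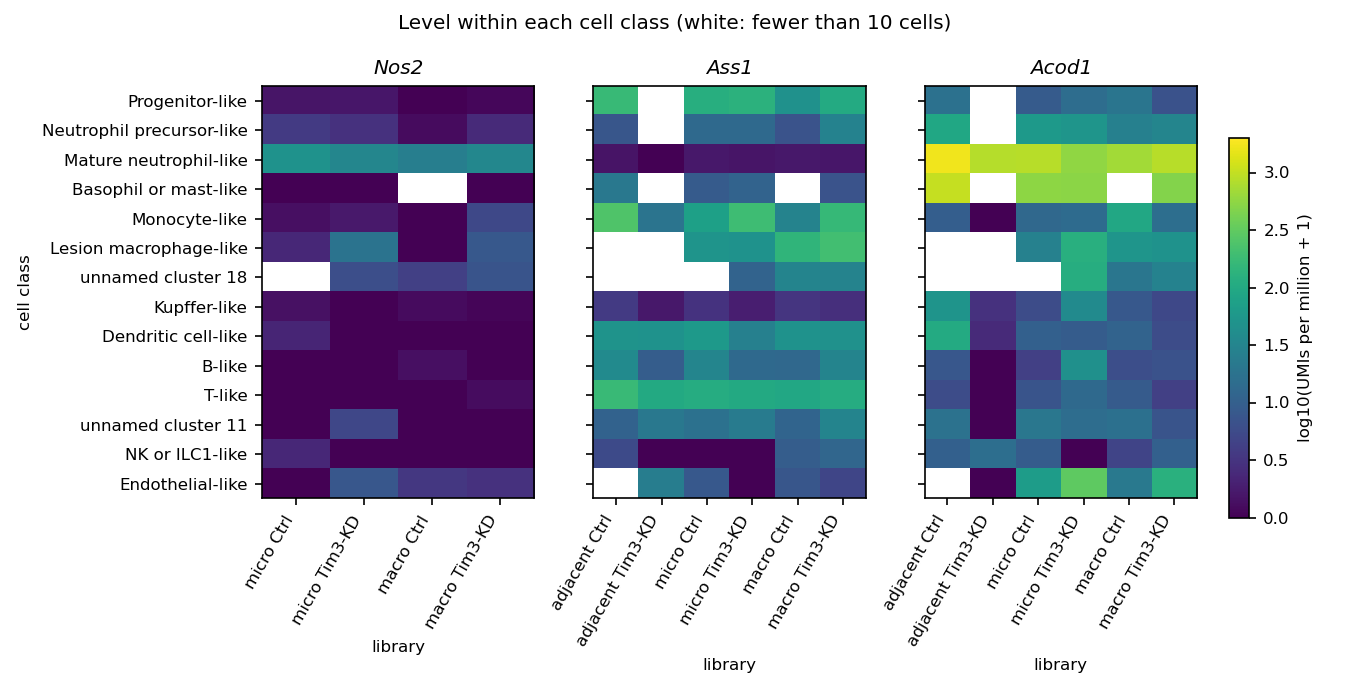
Level of each gene within each cell class and library, as the log10 of CPM plus 1 (colour), with classes in lines and libraries in columns. Nos2 is brightest in mature neutrophil-like cells and Acod1 in mature neutrophil-like and basophil or mast-like cells. Ass1 is bright in T-like cells, in progenitor-like cells where present and, in macrometastasis, in lesion macrophage-like cells (142 and 199). Monocyte-like cells are also bright in Ass1, except in Tim3-KD adjacent tissue (17.4) and Ctrl macrometastasis (29.2).

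**Figure D3:**
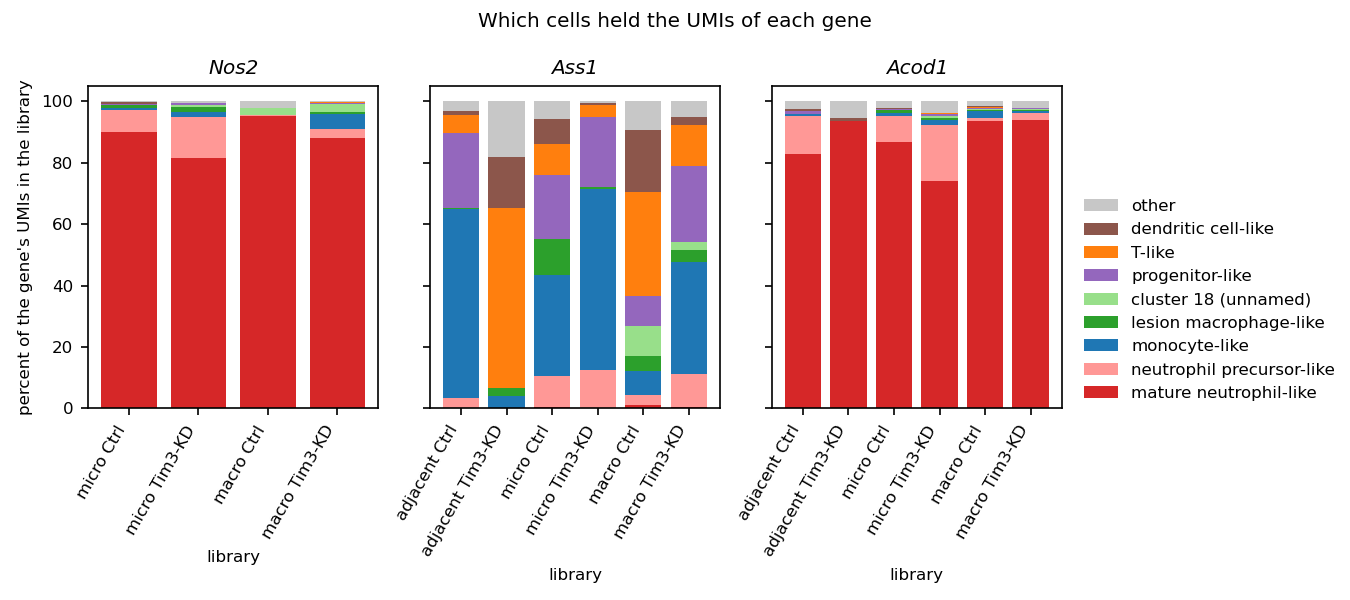
Percent of each gene's UMIs in a library (vertical axis) that each cell class held, by library; each bar sums to 100%. Nos2 and Acod1 lie mostly in mature neutrophil-like cells (red) (74.2% to 95.1%), and Ass1 is spread over monocyte-like, progenitor-like and T-like cells.

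Nos2 belonged to the neutrophils. Mature neutrophil-like cells held 90.0% and 81.7% of the Nos2 UMIs in micrometastasis (Ctrl and Tim3-KD) and 95.1% and 88.0% in macrometastasis. In this class Nos2 was at 46.8 CPM (42.8 to 50.9) in 1522 Ctrl cells and 31.8 (28.95 to 34.8) in 1782 Tim3-KD cells of micrometastasis, a ratio of 0.680 (0.599 to 0.772). In macrometastasis it was at 24.8 (22.2 to 27.7) in 1652 and 32.4 (29.6 to 35.4) in 2020 cells, a ratio of 1.30 (1.13 to 1.51). The direction of the difference was thus opposite at the 2 sites, which also differ in day. Within this class 5.54% of 1716 genes in micrometastasis and 5.29% of 1664 in macrometastasis were past 2-fold, and at each site 0 of the 2 enzymes with enough UMIs there, Nos2 and Acod1. After thinning, 6.24% and 4.66% of the class had a Nos2 UMI in micrometastasis and 3.39% and 4.70% in macrometastasis, beside none of 649 and 70 B-like cells in micrometastasis. These counts of 0 allow up to 0.462% and 4.29% of B-like cells with a UMI at this thinned depth, and do not limit the share that express the gene.

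Both main neutrophil clusters of micrometastasis had lower Nos2 in Tim3-KD. Cluster 0 (Steap4, G0s2, Cxcr2) was at 52.8 (46.9 to 59.3) and 35.3 (29.6 to 41.8), a ratio of 0.668 (0.541 to 0.823). Cluster 3, led by Prok2 and the stefin genes Stfa2 and Stfa3, was at 40.8 (35.7 to 46.5) and 30.6 (27.4 to 34.2), a ratio of 0.750 (0.631 to 0.892). In macrometastasis cluster 0 was at 18.9 (10.6 to 31.2) in 136 Ctrl cells and 41.4 (36.1 to 47.3) in 753 Tim3-KD cells, a ratio of 2.19 (1.30 to 3.99), and cluster 3 had a ratio of 2.49 (1.06 to 7.13) from 21 and 104 cells, while clusters 4 and 6 (Bcl2l15, Arrdc4) had ratios of 0.970 (0.747 to 1.26) and 1.11 (0.859 to 1.42). The Ctrl values of clusters 0 and 3 rest on 15 and 6 UMIs.

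Nos2 was low per cell, with recovered values of up to 7 UMIs in a cell of micrometastasis, 12 in a cell of Ctrl macrometastasis and 20 in a cell of Tim3-KD macrometastasis. Values at the limit of the deposited scores, such as the 20, in a monocyte-like cell, are lower bounds. In micrometastasis neutrophil precursor-like cells stood at 2.60 (1.87 to 3.52) and 1.92 (1.51 to 2.41), and their earliest cluster 8 (Elane, Mpo, Prtn3) at 0.144 and 0.213. Macrophages are the textbook site of Nos2. Lesion macrophage-like cells stood at 1.34 (0.491 to 2.91) in Ctrl and 17.3 (8.27 to 31.7) in Tim3-KD micrometastasis, from 6 UMIs in 4 cells and 10 UMIs in 3 cells, the latter with an interval that overlapped that of the mature neutrophil-like cells of its library, and Kupffer-like cells had at most 2 Nos2 UMIs in a library.

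Acod1 was also a neutrophil gene here, at levels far above those of Nos2. Mature neutrophil-like cells held 74.2% to 93.8% of its UMIs in the 6 libraries. Acod1 was at 1699 CPM (1660.1 to 1739) in 598 Ctrl cells of adjacent tissue and 850.1 (682 to 1047) in the 19 Tim3-KD cells. In micrometastasis it was at 892 (875 to 910) and 560.4 (548 to 573), a ratio of 0.628 (0.610 to 0.647), and in macrometastasis at 690.1 (676 to 705) and 891 (876 to 907), a ratio of 1.29 (1.26 to 1.33). The gap of 21.1-fold over all cells of adjacent tissue was thus a ratio of 0.50 (0.40 to 0.617) within mature neutrophil-like cells. All 19 Tim3-KD cells of the class lay in cluster 0, beside 510 of the 598 in Ctrl, and within cluster 0 the ratio was 0.389 (0.312 to 0.480). A UMI of Acod1 was found in 73.4% to 93.8% of mature neutrophil-like cells, at medians of 5146.5 to 6047 UMIs, beside 1.54% and 4.29% of the B-like cells of micrometastasis, at medians of 3484 and 4223.5 UMIs.

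The clusters within the class did not follow the class in macrometastasis. Cluster 0, whose leading genes include Steap4, Isg15 and Cxcr2, was the highest large cluster at every site, at 1328 (1298 to 1359) and 994 (963 to 1026) in micrometastasis and 1850 (1757 to 1947) and 1412 (1380 to 1444) in macrometastasis (Ctrl and Tim3-KD). Its Tim3-KD over Ctrl ratio was 0.749 (0.720 to 0.779) and 0.763 (0.722 to 0.808), lower in Tim3-KD at both sites. In macrometastasis cluster 4 was at 315 and 333, a ratio of 1.06 (0.988 to 1.13), and cluster 6 at 985 and 1038, a ratio of 1.05 (1.01 to 1.10). Cluster 0 made up 136 of 1652 mature neutrophil-like cells in Ctrl and 753 of 2020 in Tim3-KD, and the other clusters of the class, pooled, were at 612 and 608, a ratio of 0.993 (0.959 to 1.03). With the mix of clusters held as in Ctrl, the log2 difference over all macrometastasis cells was -0.07 in place of 0.08. In micrometastasis cluster 3 was at 466 and 396, a ratio of 0.849 (0.808 to 0.892).

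**Figure D4:**
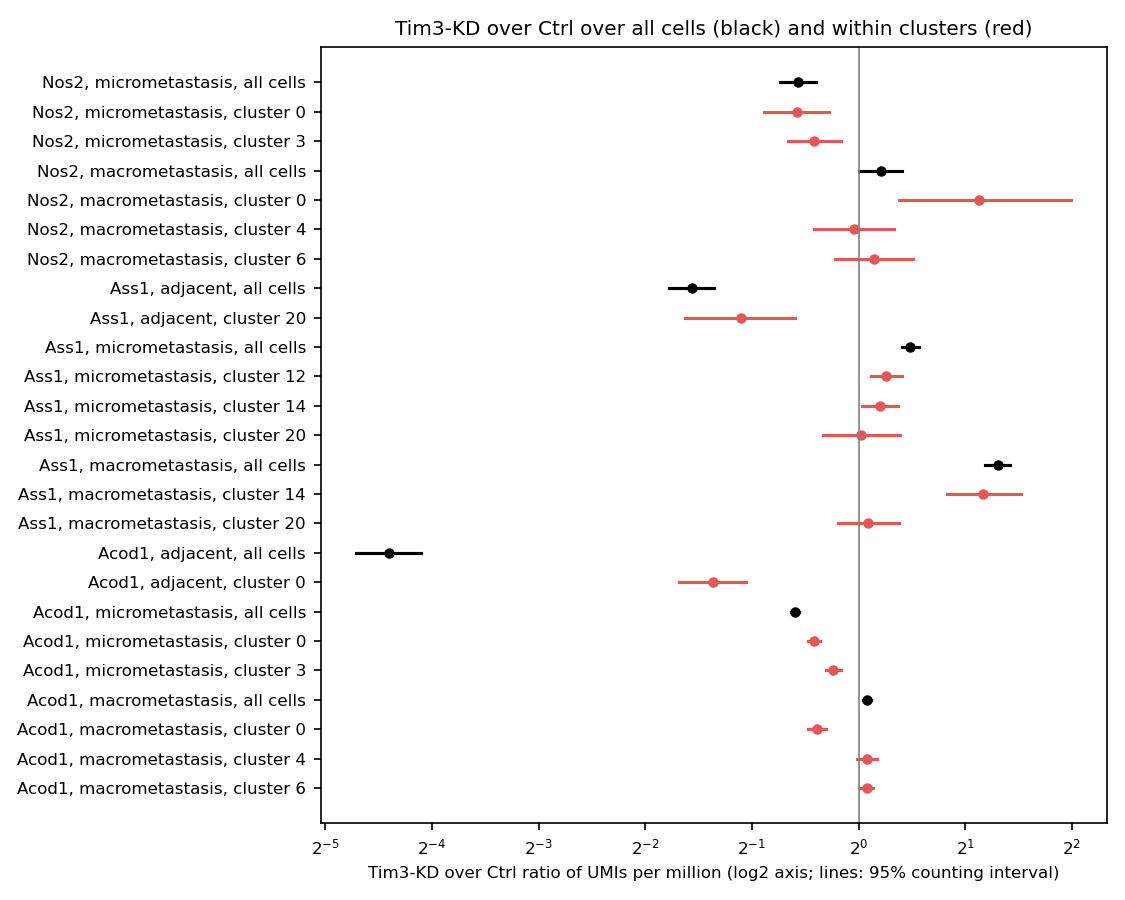
Tim3-KD over Ctrl ratio of CPM (horizontal, log2 axis) over all cells of a site (black) and within clusters (red), with 95% counting intervals; the vertical line marks equal levels. Ass1 in micrometastasis lies at 1.40 over all cells and at 1.20 within cluster 12, and Acod1 in macrometastasis at 1.05 over all cells and 0.763 within cluster 0.

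Acod1 stood higher in the mature neutrophil-like clusters than in the precursor clusters. No order in time among the mature clusters was tested, and they are listed by level. In Ctrl micrometastasis it was at 9.37 (7.23 to 11.9) in cluster 8 (Elane, Mpo), 75.4 (68.0 to 83.3) in the cycling cluster 9 (Fcnb, Cebpe), 126 (115 to 137) in cluster 7 (Ltf, Cd177, Ly6g) and 466 and 1328 in the mature clusters 3 and 0. The same order held in Tim3-KD micrometastasis, at 4.05, 62.6, 146, 396 and 994, and no neighbours in this order had overlapping intervals in either library. Ctrl adjacent tissue gave 2.32, 59.6, 148, 568 and 2184. In macrometastasis the precursor clusters 8, 9 and 7 were at 4.48, 25.7 and 83.1 in Ctrl and 8.10, 25.2 and 140 in Tim3-KD. The mature clusters 4, 3, 6 and 0 were there at 315, 824, 985 and 1850 in Ctrl and 333, 526, 1038 and 1412 in Tim3-KD.

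Basophil or mast-like cells (Mcpt8, Gata2, Il6) were the other class with high Acod1, and 12.6% of their cluster's cells had a doublet score over 0.15, whose part in the level was not tested. They were at 1035 (880.1 to 1210) in 17 Ctrl cells of adjacent tissue, 540.04 (469 to 619) and 536 (473 to 605) in 34 and 52 cells of micrometastasis, a ratio of 0.993 (0.824 to 1.20), and 486 (414 to 568) in 34 Tim3-KD cells of macrometastasis. In Tim3-KD micrometastasis their interval overlapped that of mature neutrophil-like cells. In micrometastasis lesion macrophage-like cells stood at 27.4 (22.8 to 32.7) and 121 (94.1 to 153), a ratio of 4.41 (3.24 to 5.96), and the level was 4.85 (2.51 to 8.47) and 36.6 (29.2 to 45.3) in Kupffer-like cells. The log2 difference of 2.14 in the lesion macrophage-like cells was 0.45 with the enzymes among the clustered genes, 0.65 at resolution 2 and 0.84 without the 10 cells with the most Acod1 in each library, which held 63 of the 70 UMIs in Tim3-KD. Other classes were also higher in Tim3-KD there. B-like cells were at 3.19 and 44.0, a ratio of 13.8 (5.70 to 34.7) from 10 UMIs in 10 cells and 14 UMIs in 3 cells, and endothelial-like cells at 66.6 and 305, and the markers of the Mature neutrophil list summed to 352 and 716 CPM in the lesion macrophage-like cells (cluster 15). Their part in these values was not tested. In macrometastasis the Acod1 ratio was 0.915 (0.461 to 1.90) in lesion macrophage-like cells and 0.587 (0.386 to 0.889) in Kupffer-like cells. Kupffer-like cells of adjacent tissue were at 50.5 in 31 Ctrl cells, from 19 UMIs in 3 cells, and at 1.95 in 106 Tim3-KD cells.

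Mature neutrophil-like cells with and without a Nos2 UMI were compared for Acod1. Thinned to 1500 UMIs, 52.6% (42.1% to 63.0%) of mature neutrophil-like cells with Nos2 in Ctrl micrometastasis had Acod1, beside 58.4% of those without Nos2. The shares were 51.8% and 49.1% in Tim3-KD micrometastasis, 51.8% and 49.4% in Ctrl macrometastasis and 56.8% and 57.6% in Tim3-KD macrometastasis, each within the interval of the cells with Nos2. No difference was detectable at this depth.

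Ass1 kept to other cells. Mature neutrophil-like cells, with the most Acod1, had 0 to 0.634 Ass1 CPM in the 6 libraries, and Kupffer-like cells 0.649 to 2.21 in the libraries with at least 50 of them. High Ass1 was found in an immature monocyte-like cluster, in progenitor-like cells, in 1 T-like cluster and, in macrometastasis, in lesion macrophage-like cells. At full depth, 8.65% and 9.30% of cells with Ass1 in micrometastasis also had Acod1, beside 35.3% and 46.6% of cells without Ass1, and 8.91% and 9.33% beside 30.2% and 36.4% in macrometastasis (Ctrl and Tim3-KD). Thinned to 1500 UMIs, 1 of 160 and 2 of 173 cells with Ass1 had Acod1 in micrometastasis, beside 20.0% and 21.1% of cells without, and 0 of 95 and 5 of 190 beside 18.1% and 23.0% in macrometastasis, where 0 of 95 allows a share of up to 3.16%. Ass1 was seen with Nos2, whose product citrulline it uses, in 1 of these 160 cells and in 0 of 173, 0 of 95 and 0 of 190 in the other libraries, beside 2.00%, 1.79%, 1.22% and 1.86% of cells without Ass1. The counts of 0 allow shares of up to 1.73%, 3.16% and 1.58% of cells with a UMI, close to or above the shares without Ass1.

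Monocyte-like cluster 12, led by F13a1, Ly6c2, Fn1, S100a10 and the proliferation gene Pclaf, held the most Ass1 UMIs in some libraries and few in others. Ass1 was at 371 CPM (352 to 391) in its 89 Ctrl cells of adjacent tissue, where Tim3-KD had none of these cells. It was at 218 (199 to 239) in 91 Ctrl and 260.4 (249.6 to 271) in 341 Tim3-KD cells of micrometastasis, a ratio of 1.20 (1.08 to 1.32), and at 248 (232 to 264) in 111 Tim3-KD cells of macrometastasis, where Ctrl had 7. The level in these cells was thus close between the micrometastasis libraries and their number was not. The cluster held 23.9% and 56.3% of the Ass1 UMIs of micrometastasis and 1.90% and 32.6% of those of macrometastasis. In Ctrl macrometastasis T-like cells held 33.8% and dendritic cell-like cells 20.1%, and in Tim3-KD adjacent tissue T-like cells held 58.5%. The mature monocyte-like cluster 5 (Ccr2, Ms4a4c) was far lower, at 27.0 and 25.4 in micrometastasis.

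Without cluster 12, Ass1 over the remaining cells was at 27.6 in Ctrl and 23.8 in Tim3-KD micrometastasis, a ratio of 0.864 (0.805 to 0.926), so the direction turned. Without cluster 12 and the progenitor-like cluster 14 it was at 21.3 and 12.6, a ratio of 0.589 (0.537 to 0.646). In macrometastasis the ratio was 1.79 (1.65 to 1.95) without cluster 12 and 1.37 (1.24 to 1.5) without both, with no change of direction. In adjacent tissue it was 0.681 (0.582 to 0.795) and 1.33 (1.12 to 1.58). The 2 sets were left out after their values had been seen.

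Progenitor-like cells (Cd34, Sox4, Cdk6) were at 164 (151 to 178) in Ctrl adjacent tissue, 115 (104 to 127) and 132 (124 to 141) in micrometastasis, a ratio of 1.15 (1.02 to 1.29) that turned to a log2 difference of -0.19 with the enzymes among the clustered genes and -0.10 at resolution 2, and 45.7 (36.2 to 57.0) and 103 (95.4 to 111) in macrometastasis, a ratio of 2.25 (1.78 to 2.88). Early neutrophil precursors of cluster 8 (Elane, Mpo) were at 28.1 and 25.3 in micrometastasis and 13.4 and 42.7 in macrometastasis, a ratio of 3.18 (2.10 to 5.04), and the later precursor clusters 7 and 9 at 1.26 or less. Acod1 was low in the progenitor-like and cluster 8 cells, at 5.82 to 17.9 in progenitor-like cells and 2.32 to 9.37 in cluster 8 over the 5 libraries that held them.

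Among T-like cells, cluster 20 (Ctla4, Tnfrsf4, Ikzf2, Icos), genes known from regulatory and activated T cells, was the highest at each site. Ass1 was at 364 (300.1 to 436) and 169 (124 to 225) in its 31 and 17 cells of adjacent tissue, 305 (256 to 359) and 310.4 (258 to 370.3) in 79 and 54 cells of micrometastasis, and 203 (174 to 236) and 217 (192 to 244) in 100 and 139 cells of macrometastasis. Tim3-KD stood to Ctrl at 1.02 (0.794 to 1.31) in micrometastasis and at 1.07 (0.876 to 1.30) in macrometastasis. The naive-like T cluster 10 (Lef1, Il7r, Tcf7) was at 53.3 to 78.5 and the CD8 cluster 19 at 16.5 to 33.0 where it had at least 79 cells. Cluster 20 also had a doublet score over 0.15 in 11% of its cells. Lesion macrophage-like cells were at 142 (101 to 194) and 199 (164 to 240) in 30 and 47 cells of macrometastasis. There 10 cells held all 39 UMIs in Ctrl and 82.0% of the 111 in Tim3-KD. These levels were above every other class of those libraries with at least 10 cells. The interval still overlapped that of T-like cells (83.3 to 106) in Ctrl and that of monocyte-like cells (151 to 170.5) in Tim3-KD. In micrometastasis lesion macrophage-like cells were at 50.1 (43.8 to 57.1) and 46.6 (30.7 to 67.8). Dendritic cell-like cluster 16 (Clec9a, Naaa) was at 64.7 (53.9 to 77.1) in Ctrl and 27.7 (17.9 to 40.9) in Tim3-KD micrometastasis, a ratio of 0.428 (0.267 to 0.662).

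The genes whose levels were most like those of each enzyme over class-by-library sums of at least 50 cells were taken by Pearson's r of log2(CPM + 10), as a description, since the sums share libraries and depth. For Nos2 (48 sums of 4 libraries, 1785 genes) they were the chemokine receptor gene Cxcr1 (0.92), Gm13822 (0.91), Il1rap (0.90), Retn (0.90) and Gm19696 (0.90), with Acod1 at 0.79 in place 61. For Ass1 (58 sums of 6 libraries, 1641 genes) they were S100a4 (0.73), S100a10 (0.67), Lgals1 (0.66), Ramp1 (0.65) and the tubulin gene Tubb5 (0.64). For Acod1 (the same 58 sums) they were the histamine synthesis gene Hdc (0.95), the chemokine receptor gene Cxcr2 (0.95), Gm16556 (0.91), Il1f9 (0.91) and Upp1 (0.91). The r between Ass1 and Acod1 was -0.46.

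Other genes of the pathways were counted from fixed lists. Of the arginine transport, urea cycle and nitric oxide list, 0 of 4 genes measured in micrometastasis were past 2-fold (median log2 difference -0.51, beside the shift of -0.44 over all genes), among them Slc7a7, an exporter of arginine, at 27.1 CPM (Ctrl) and 15.4 CPM (Tim3-KD). In macrometastasis 3 of 5 were past 2-fold lower, beside 10.6% of all genes, and none higher (median -1.03), and 0 of 5 relative to the shift of -0.27. These were Gch1, which makes the cofactor of nitric oxide synthases, at 33.1 and 15.1, the endothelial synthase Nos3 at 6.19 and 3.03, and Ddah2, which clears an inhibitor of these synthases, at 10.1 and 4.88. Nos3 and Ddah2 were highest in endothelial-like cells, which were 7.04% of Ctrl and 2.42% of Tim3-KD macrometastasis cells. In adjacent tissue, where 33.9% of all genes were past 2-fold higher and 9.26% lower, 3 of 5 were higher (Gatm, Slc7a7 and Gch1; 1 relative to the shift of 0.60) and 1 lower, Padi4 at 40.2 and 0.423.

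Of the itaconate, citrate and succinate list, 2 of 7 genes in micrometastasis were past 2-fold lower, beside 18.1% of all genes, and none higher (median -0.75), and 0 of 7 relative to the shift. These were Atf3, a stress factor known to be induced by itaconate derivatives, at 391 in Ctrl and 155 in Tim3-KD, and the cystine transporter gene Slc7a11 at 31.1 and 14.5. In macrometastasis 0 of 8 were past 2-fold, and in adjacent tissue 2 of 11 were higher, beside 33.9% of all genes, Hmox1 (48.7 and 226) and Aco1 (5.55 and 17.2), and 1 lower, beside 9.26%, Slc7a11 (26.5 and 6.91). Of the ornithine, proline and polyamine list none of 2 genes passed 2-fold in micrometastasis or in macrometastasis. In adjacent tissue, beside the same shares of all genes, 1 of 5 was higher, the lysosomal polyamine exporter gene Atp13a2 (13.9 and 40.6), and 1 lower, the spermine oxidase gene Smox (48.7 and 12.4), and relative to the shift 0 of 5 were higher and 2 lower.

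In mature neutrophil-like cells alone, where Nos2 and Acod1 sat, 0 of 4 genes of the arginine list and 1 of 7 of the itaconate list were past 2-fold in micrometastasis, and 5 of 18 inflammatory genes were past 2-fold lower, beside 4.37% of all genes in this class (median -0.63, beside the shift of -0.15). The class was 959 cells of cluster 0 and 550 of cluster 3 in Ctrl and 726 and 1043 in Tim3-KD, and the part of this mix in the list's values was not tested. Il1b, the gene of interleukin 1 beta, was at 5430.2 CPM (Ctrl) and 1985 CPM (Tim3-KD), the chemokine genes Ccl4 at 359 and 87.5 and Cxcl3 at 114 and 18.8, and the prostaglandin synthase gene Ptgs2 at 105 and 17.4, where Acod1 and Nos2 stood at ratios of 0.628 and 0.680. In macrometastasis 0 of 3 and 0 of 8 genes of the arginine and itaconate lists were past 2-fold, and 7 of 14 interferon-induced genes were past 2-fold higher, beside 3.67% of all genes (median 1.05, beside -0.11). Isg15 was at 213 in Ctrl and 494 in Tim3-KD, Irf7, a factor that drives interferon genes, at 43.6 and 115, Gbp2 at 38.6 and 101 and Oasl1 at 38.2 and 88.4. Acod1 and Nos2 were at ratios of 1.29 and 1.30 there, and cluster 0, with Isg15 among its leading genes, made up more of the class in Tim3-KD.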

How the data were processed

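Liver CD45+ cells of 6 groups, 1 library each, were profiled by 10x 3' single-cell RNA-seq. Per the paper's methods and the processing notes, reads were trimmed with Trim Galore 0.4.3 and aligned with STAR 2.7.7a to GRCm38, UMIs over exons and introns were counted, cells were filtered on UMIs, genes and mitochondrial reads, and doublets were removed with scrublet before deposit. The deposited values are scores: the authors took the variable genes of each site, normalised each cell to 10000 UMIs, took logs, regressed out total UMIs, scaled each gene and limited values to 10.

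The design had assumed counts. As the files hold scores, each score was inverted to a UMI number, together with the total of each cell. Of the detected values, 99.9974% to 99.9999% came out within 0.05 of a whole number by site, and 0.144% to 0.160% stood at the limit and are lower bounds. In a test on simulated data, drawn from adjacent tissue with 2345 cells and 4173 genes, 100% of values were recovered. Levels are CPM over all UMIs, of which the matrices hold 10.5% to 20.2%, and libraries held 7086531 to 79971767 UMIs. Some genes of the design are not reported here. The members, gene lists and markers were chosen with earlier results of these data known.

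All cells were clustered together (scanpy 1.11.5, leidenalg 0.10.2, scikit-learn 1.9.0, Python 3.11.15) on 1640 genes shared by the sites, without the enzymes, with 30 principal components, 15 neighbours and Leiden resolution 1. A class name needed at least 3 markers found in 25% of cells at 2-fold, and ties stayed unnamed. A doublet score over 0.15 was found in 2.12% to 5.55% of cells by library, and none was left out. Intervals (scipy 1.17.1, numpy 2.4.6) are exact Poisson for levels, exact binomial for shares and conditional binomial for ratios. They cover counting error only. With 1 library per group no test was run, and mice within a pool are not resolved. The limit for a count of 0 is 3 counts. Named genes were the enzymes, the 5 genes most like each, and up to 4 genes per list with the most UMIs among those past 2-fold, and genes beyond these were chosen after their values were seen. Other scalings, cell filters, cluster settings and cell mixes were tried, of which the cluster mix, the pooled and the left-out clusters were chosen after seeing the data.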

Additional observations from a re-analysis of the deposited data

Results flagged for a closer look

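For 5 pairs of sites the log2 difference between Tim3-KD and Ctrl over all cells pointed in opposite directions at the 2 sites. Each site has 1 library per tumour line, so the difference between sites was not tested, and macrometastasis also differs in day. Nos2 was at -0.57 in micrometastasis and 0.21 in macrometastasis, 0.77 apart. Ass1 was at -1.56 in adjacent tissue, 2.05 below its 0.48 in micrometastasis and 2.87 below its 1.30 in macrometastasis. Acod1 was at 0.08 in macrometastasis, 4.48 above its -4.40 in adjacent tissue and 0.67 above its -0.59 in micrometastasis. The Acod1 value in macrometastasis was -0.04 without cells of high doublet score.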

How the results depend on the processing

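Each log2 difference between Tim3-KD and Ctrl was recomputed under other settings, and the cause of a move was not tested except where the setting itself shows it. With the class mix held as in Ctrl, Nos2 was at -0.25 in micrometastasis. Ass1 was then at -2.57, 0.67 and 1.02 and Acod1 at -1.48, -0.41 and 0.18 in adjacent tissue, micrometastasis and macrometastasis. With the cluster mix held, Nos2 was at -0.16 in micrometastasis. Ass1 was at -0.84, 0.031 and 0.47 and Acod1 at -1.93, -0.14 and -0.075 at the 3 sites, the last a reversal. Relative to the trimmed mean over genes, Nos2 was at -0.13 in micrometastasis and 0.48 in macrometastasis, Ass1 at -2.16, 0.92 and 1.57 and Acod1 at -5.00, -0.15 and 0.34 at the 3 sites, and 322 in place of 504 genes were past 2-fold in micrometastasis. As a mean over cells, Nos2 was at -0.21 and 0.55 and Acod1 at -0.30 and 0.42 in micrometastasis and macrometastasis, and Ass1 at -0.85 in adjacent tissue and 0.68 in macrometastasis, so that Ass1 in macrometastasis was past 2-fold neither here nor with the cluster mix held. Without the 10 cells with the most UMIs of the gene, Ass1 was at -2.08 and Acod1 at -6.96 in adjacent tissue. Without cells of high doublet score Acod1 in macrometastasis was at -0.045, a reversal. The other 32 of 64 values over all cells moved by less than the counting interval or by less than 1.5 times for counts of genes.

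Within classes, 197 of 213 values kept their direction and 38 moved beyond the counting interval without being called reversed. The cluster mix held as in Ctrl brought Ass1 in monocyte-like cells from 1.34 to 0.39 in micrometastasis and from 2.46 to 0.79 in macrometastasis, and Acod1 there from -2.70 to -1.08 in macrometastasis. Ass1 in progenitor-like cells of micrometastasis reversed to -0.19 with the enzymes clustered and -0.10 at resolution 2, Acod1 in neutrophil precursor-like cells there to 0.17 with the cluster mix held, and Acod1 in cluster 18 of macrometastasis to -0.50 without cells of high doublet score. No paired analysis was possible because the groups compared, Ctrl and Tim3-KD of a site, have 1 library each, and a fit with sites as blocks, which would take the difference as equal at all sites, was not run. Depth limits Nos2, with few UMIs per cell, and the Tim3-KD library of adjacent tissue, with 542 cells.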

Other observations

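Acod1 also appeared in small numbers of other cells. In monocyte-like cells of macrometastasis it was at 94.5 CPM (82.1 to 108) in 212 Ctrl cells and 14.6 (11.8 to 17.8) in 341 Tim3-KD cells, a ratio of 0.154 (0.119 to 0.198). Different clusters held the class in the 2 libraries, with 156, 7 and 49 Ctrl cells and 225, 111 and 5 Tim3-KD cells in clusters 5, 12 and 25, and within cluster 5 the ratio was 0.473 (0.344 to 0.647). In micrometastasis the class was at 12.0 (9.78 to 14.5) and 13.3 (11.3 to 15.5). In dendritic cell-like cluster 23 it was at 397 (296 to 523) in 14 Ctrl cells of adjacent tissue, with all 51 UMIs in 1 cell, so that the interval does not describe the cluster, and 3.04 (0.0771 to 17) in 17 Tim3-KD cells. Endothelial-like cells of macrometastasis went the other way, with 20.8 (14.5 to 28.9) in 346 Ctrl and 123 (94.4 to 157) in 133 Tim3-KD cells, where 10 and 9 cells held all the UMIs.

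Ass1 in B-like cells was at 36.8 (28.4 to 46.9) in Ctrl and 8.40 (5.06 to 13.1) in Tim3-KD adjacent tissue, 30.6 (24.8 to 37.4) and 12.6 (3.43 to 32.2) in micrometastasis, a ratio of 0.411 (0.110 to 1.09), and 11.9 (8.16 to 16.8) and 29.5 (23.4 to 36.6) in macrometastasis. NK or ILC1-like cells had no Ass1 UMI in 175 Ctrl cells of micrometastasis, which allows a level of up to 4.01 CPM.

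Over all cells of micrometastasis, genes of the inflammatory list (7 of 20 past 2-fold lower in Tim3-KD, none higher) and of alternative macrophage activation (5 of 12 lower, none higher) were counted beside 18.1% of all genes past 2-fold lower, and relative to the shift 3 of each were lower and 1 higher. Il1b was at 1609.8 CPM (Ctrl) and 558 CPM (Tim3-KD), and Ccl24 at 327 and 76.8. Lesion macrophage-like cells, which Ccl24 helps to define, were 8.03% of Ctrl and 1.23% of Tim3-KD cells there, and their part in these counts was not tested. Of the interferon-induced list 2 of 18 and of hypoxia and glycolysis 2 of 8 were past 2-fold lower there. In macrometastasis, where 10.6% of all genes were past 2-fold lower, these lists gave 1 of 18, 0 of 9, 2 of 16 and 0 of 9 past 2-fold lower and none higher, in the order inflammatory, alternative activation, interferon-induced and hypoxia. In adjacent tissue, where 33.9% of all genes were past 2-fold higher and 9.26% lower, 7 of 10 genes of alternative macrophage activation were higher and 2 lower, among them the mannose receptor gene Mrc1 at 12.0 and 237. Kupffer-like cells were 1.72% of Ctrl and 19.6% of Tim3-KD cells there and endothelial-like cells 0.111% and 6.46%, and their part was not tested. The inflammatory list had 4 of 19 higher and 7 lower, the interferon-induced list 4 of 18 higher and 2 lower, and the hypoxia list 0 of 8 higher and 1 lower.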
